A study of Mus musculus with 24 samples.

Results

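The genes described here control how fuel enters the heart muscle cell: 2 glucose transporters (Slc2a1 and Slc2a4), the kinase that closes pyruvate oxidation (Pdk4), an enzyme that frees fatty acids from blood lipoproteins (Lpl) and its inhibitor (Angptl4), a membrane receptor and a membrane transport protein for fatty acids (Cd36 and Slc27a1), a pair of cytosolic fatty acid carriers (Fabp3 and Fabp4) and a lipid droplet coat protein (Plin5). They were chosen by gene symbol from the raw count table. All 10 were present among its 39396 genes, and all 10 passed the filter on low counts that left 17352 genes for testing. The table holds polyadenylated RNA from the left ventricle of newborn mice in 24 libraries. DKO mice carried an embryonic deletion of both Rhot1 and Rhot2 restricted to cardiomyocytes. These genes encode the RHOT (Miro) proteins, which anchor mitochondria to the motors of the cytoskeleton. The groups were control labelled day 1, DKO labelled day 1, control labelled day 7 and DKO labelled day 7, with 6 libraries in each. Neither the driver of the deletion nor the strain nor the alleles of the controls is given in the sources used here. Cardiomyocytes are the labelled source, but the protocol describes RNA of left ventricular tissue, and thus of all its cell types.

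Before birth the heart lives mainly on glucose and lactate. After birth, milk brings fat, and the muscle turns to fatty acids. Glucose enters through SLC2A1 (GLUT1), the transporter of the fetal heart, and SLC2A4 (GLUT4), which insulin and contraction move to the cell surface. Fatty acids reach the cell from lipoproteins cut by lipoprotein lipase at the capillary wall. They cross the membrane with the help of CD36 and the transport protein SLC27A1 (FATP1) and travel through the cytosol on FABP3, while FABP4 does the same in capillary endothelium, macrophages and fat cells. Pdk4, Angptl4, Plin5, Cd36 and Fabp3 are textbook targets of the fatty acid sensing receptors of the PPAR family.

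Several facts about the libraries bear on all that follows. Library depth spanned 36145645 to 45806171 counts for control and 30318018 to 37967935 for DKO at labelled day 1, against 17334498 to 27272982 for control and 22345262 to 30453874 for DKO at labelled day 7. Rhot1 averaged 158.0 ± 16.6 CPM (counts scaled to library size by TMM, mean ± SD, n = 6) in controls and 118.6 ± 9.89 CPM in DKO labelled day 1, with an edgeR adjusted p of 0.00109. Its means at labelled day 7 were 155.4 ± 7.41 and 131.7 ± 10.8 CPM, with an edgeR adjusted p of 0.0871. Rhot2 was listed at 0 in every library and checks nothing. Labels of age are used as given, although genes of the fetal heart were higher in the libraries labelled day 7. Whether the 2 labels are exchanged cannot be settled from these files, and if they are, every direction given below between labelled ages turns. Control means were 2419 and 11790 CPM for the slow myosin Myh7 and 222.1 and 752.4 CPM for the fetal growth factor Igf2, at labelled day 1 and day 7. Every one of the 12 libraries labelled day 1 held Y-linked transcripts, as did 4 of 12 at labelled day 7, and each labelled age had its own style of library name. Labelled age and library set therefore cannot be told apart, while labelled age was also compared among libraries with Y-linked transcripts alone (6 control and 6 DKO libraries labelled day 1, 2 and 2 labelled day 7). Cardiomyocyte markers summed to between 40600 and 58570 CPM in all 24 libraries, with none of the 7 at 0.

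Expressed per kilobase of transcript, so that genes can be set side by side, Fabp3 was the most abundant of the 10, with a control mean of 6118 CPM per kb at labelled day 1. Fabp4 (644.6), Cd36 (430.9), Lpl (238.9) and Plin5 (104.3 CPM per kb) came next, each with a range over libraries that did not overlap its neighbour's. Slc27a1 (60.4), Slc2a4 (52.3) and Pdk4 (43.9 CPM per kb) followed with ranges that overlapped. Angptl4 (11.6) and Slc2a1 (1.27 CPM per kb) came last. For labelled day 7 the control order kept Fabp3 (2524), Fabp4 (391.0), Cd36 (302.8) and Lpl (190.5 CPM per kb) at the top. There the ranges of Fabp4 (325.7 to 469.0) and Cd36 (249.8 to 345.8 CPM per kb) overlapped. The next 5, from Slc2a4 (34.04) to Angptl4 (21.5 CPM per kb), had ranges that overlapped. Slc2a1 was again the lowest, at 4.13 CPM per kb. Together the 10 genes took 0.837 to 0.878% of control counts and 0.919 to 0.960% of DKO counts at labelled day 1, ranges that did not overlap. Most of these counts were those of Fabp3, which averaged 5035 CPM in controls and 6134 CPM in DKO. Means of Cd36, Fabp4, Slc27a1, Plin5 and Slc2a4 were lower in DKO, and those of Slc2a1, Lpl, Pdk4 and Angptl4 higher. The pooled share therefore does not describe the 10 genes as a set, and no other sets were compared. At labelled day 7 the pooled share was 0.394 to 0.574% for control and 0.498 to 0.685% for DKO.

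**Figure D1:**
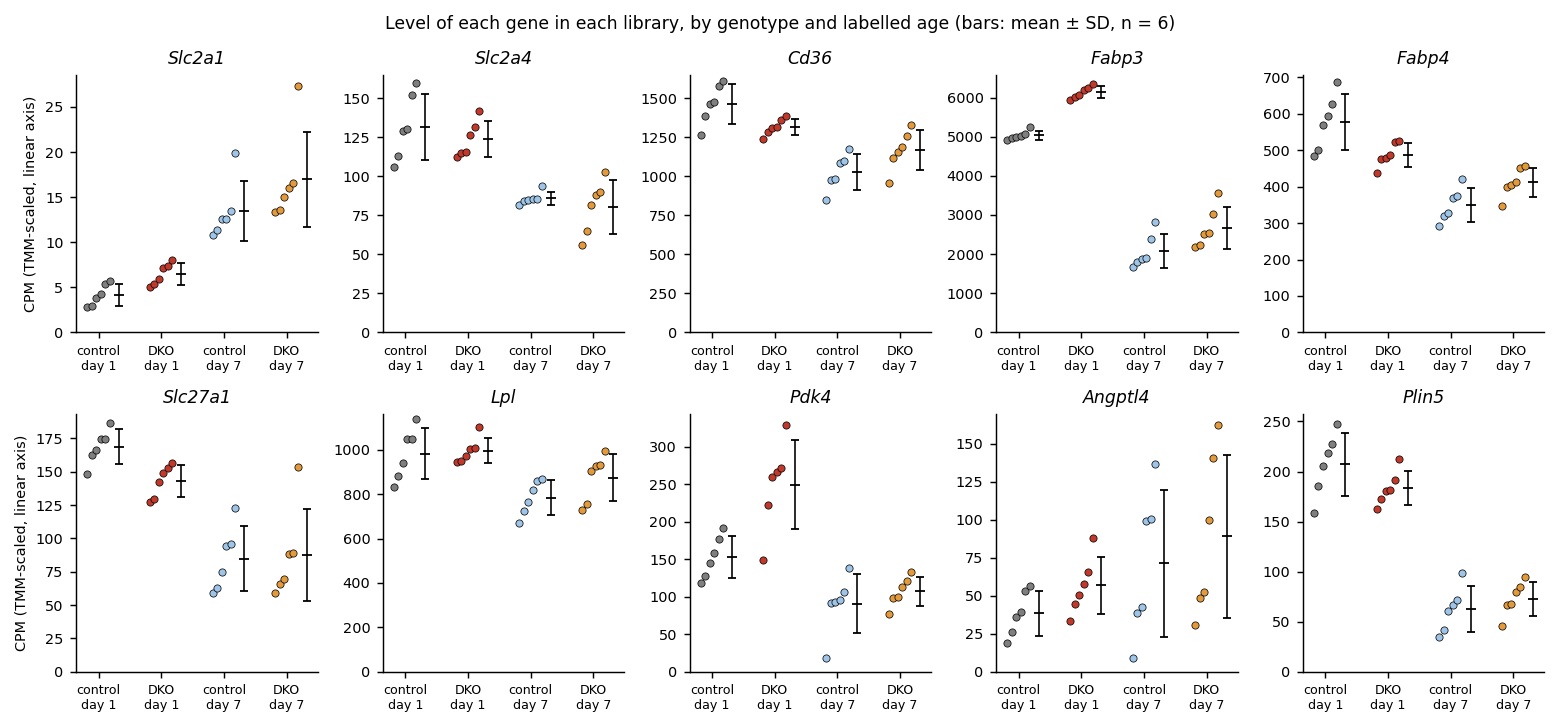
Level of each of the 10 genes in every library, in CPM after TMM scaling on a linear axis from 0, by genotype and labelled age. Points are libraries and bars are mean ± SD (n = 6). Fabp3 separates DKO (5935 to 6354 CPM) from control (4929 to 5251 CPM) at labelled day 1, and Slc2a1 is higher in both groups labelled day 7 than in both labelled day 1.

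DKO libraries were compared with control libraries within each labelled age. At labelled day 1, the fatty acid carrier Fabp3, the pyruvate dehydrogenase kinase Pdk4 and the glucose transporter Slc2a1 were higher in DKO, by 1.21-fold, 1.62-fold and 1.56-fold. The fatty acid transport protein Slc27a1 and the carrier Fabp4 were lower, at 0.844 and 0.841 times the control level. Thus 3 of the 10 genes were called higher and 2 lower, where 9.81% of all 17352 genes tested were called higher and 7.79% lower (edgeR quasi-likelihood test, adjusted p below 0.05). The median log2 fold change of the 10 was -0.04, against -0.02 over all genes. In a fit that shared its estimate of spread over all 24 libraries, only Slc2a1 of the 10 stayed past the threshold. Without control library 56, DKO library 29 or DKO library 33, the count of 5 fell to 2, 2 and 3. Of 7 cardiomyocyte markers, 3 were lower in DKO (Ryr2, Tnnt2 and Ttn), with a summed level of 47090 to 58570 CPM in controls and 46100 to 50610 CPM in DKO. Of 6 tested skeletal muscle markers, 4 myosin genes were higher (Myh1, Myh2, Myh4 and Myh8, each at most 24.4 CPM in any of the 24 libraries). The sum of the list (Acta1 at 0) was 1246 to 1672 CPM in controls and 1441 to 1687 CPM in DKO. Most of that sum was Ckm (1230 to 2031 CPM over the 24 libraries), so it does not describe the myosin genes. Of 8 atrial markers, 1 was higher and 2 lower, with sums of 110.5 to 641.2 CPM in controls and 178.6 to 907.7 CPM in DKO. Except for the atrial gene Myl7, the part of these markers in the values was not tested. Myl7 was used as a covariate, and in another fit the controls over 50 CPM of Myl7 were left out. Slc2a1, Fabp3 and Slc27a1 stayed past the threshold under both settings. Their log2 changes kept direction and were larger in size than in the fit without these settings. Pdk4 and Fabp4 passed under neither setting, as treated under these genes.

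At labelled day 7, 0 of the 10 genes passed the threshold with edgeR, DESeq2 or limma-voom, where 0.686% of all genes were called higher and 0.334% lower in DKO. At an unadjusted p below 0.05 there were 2, Fabp3 and Fabp4, both with higher means in DKO. The genotypes overlapped in all 10, while 1.69% of all genes had groups that did not overlap. The median log2 fold change of the 10 was 0.22, against -0.01 over all genes. The difference of the genotype effect between labelled ages passed for 0 of the 10 with edgeR and with limma-voom and for 1, Fabp4, with DESeq2. Over all genes, edgeR called 0.311% for an effect higher at labelled day 7 and 0.766% for a lower one. At an unadjusted p below 0.05 there were 2 of the 10, Fabp4 and Cd36. A call at labelled day 1 and none at labelled day 7 therefore does not show, for any of the 5 genes called at labelled day 1, that the response differed between the labelled ages.

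**Figure D2:**
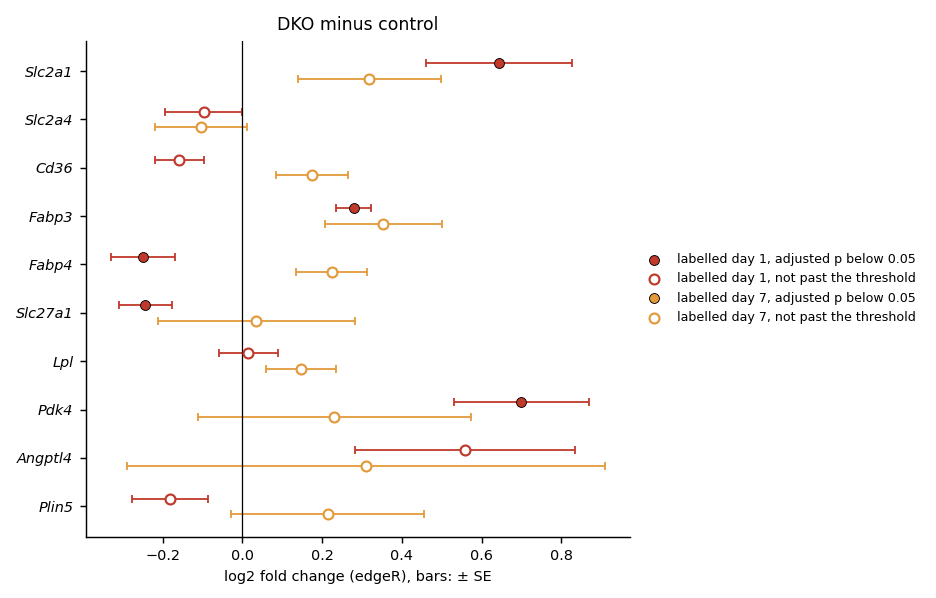
DKO minus control for each of the 10 genes, as log2 fold change (x axis) with its SE, at labelled day 1 and labelled day 7. Filled points passed an edgeR adjusted p of 0.05: 5 genes at labelled day 1 and 0 at labelled day 7.

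The start regions of the 3 genes that rose in DKO labelled day 1 are shown to place these genes in the genome and to show which short motifs lie there. Each line gives the 250 bases before the RefSeq gene start (build GRCm38.p6), in the direction of the gene, with matches to the searched motifs in capitals. The window of Slc2a1 is chr4:119108495-119108744 on the plus strand, that of Fabp3 is chr4:130308488-130308737 on the plus strand and that of Pdk4 is chr6:5496279-5496528 on the minus strand.
Slc2a1: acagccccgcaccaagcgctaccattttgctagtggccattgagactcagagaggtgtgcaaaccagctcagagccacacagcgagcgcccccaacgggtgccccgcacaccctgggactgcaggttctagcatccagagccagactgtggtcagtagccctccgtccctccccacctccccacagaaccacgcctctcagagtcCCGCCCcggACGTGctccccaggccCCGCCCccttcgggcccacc
Fabp3: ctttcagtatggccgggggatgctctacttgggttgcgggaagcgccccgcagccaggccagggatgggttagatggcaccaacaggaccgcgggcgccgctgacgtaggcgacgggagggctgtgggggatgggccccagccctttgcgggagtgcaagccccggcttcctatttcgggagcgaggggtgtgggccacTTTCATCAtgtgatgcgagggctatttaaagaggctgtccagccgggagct
Pdk4: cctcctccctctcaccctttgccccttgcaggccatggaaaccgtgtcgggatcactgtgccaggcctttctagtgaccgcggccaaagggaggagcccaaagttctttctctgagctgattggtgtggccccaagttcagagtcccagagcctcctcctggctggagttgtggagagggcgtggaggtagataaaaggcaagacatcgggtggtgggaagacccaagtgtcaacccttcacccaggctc
GENCODE M21 starts the 3 genes shown inside their windows (chr4:119108711 for Slc2a1, chr4:130308595 for Fabp3 and chr6:5496309 for Pdk4). Bases past those points precede the RefSeq start but not the GENCODE start. RefSeq windows were found for 6 of the 10 genes, 9 windows in all, and 6 motifs were searched on both strands. The hypoxia core ACGTG began 36 bases before the Slc2a1 start, and the GC box GGGCGG lay there at 45 and 20 bases, read on the other strand. Of all 32851 promoter windows, 16.6% held ACGTG and 32.7% held GGGCGG. The Fabp3 window held the amino acid response core TGATGNAA at 51 bases before the start, read on the other strand. That motif was found in 3.45% of all windows. Pdk4 held none of the 6 in its window. The nuclear receptor core AGGTCA (14.0% of all windows) was matched in windows of Cd36 and Plin5 and in none of the 3 shown. Its direct repeat with a spacer of 1 base (0.0335% of all windows) was matched in none of the 9, and the E-box CACGTG (6.02%), which contains ACGTG, in 1 window of Slc27a1. A match is a description of letters, not of a bound site.

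Slc2a1 (ENSMUSG00000028645, GRCm38 chr4:119108711-119137983) encodes the insulin-independent glucose transporter. In libraries labelled day 1 its lowest, median and highest levels were 2.86, 3.99 and 5.75 CPM in controls and 5.03, 6.497 and 8.08 CPM in DKO. All 6 DKO libraries lay above the control mean and 4 above the highest control, so the groups overlapped in part. The log2 fold change was 0.64 ± 0.18 (SE), with an edgeR adjusted p of 0.0243. This call was lost when control library 22 or 56 or DKO library 29, 33 or 35 was left out, with adjusted p of up to 0.0604. Over all 12 libraries left out in turn, the log2 fold change ran from 0.56 to 0.76. Among libraries labelled day 7 the values were 10.8, 12.6 and 19.9 CPM in controls and 13.4, 15.5 and 27.4 CPM in DKO. DKO was above the control mean in 5 of 6 libraries, with a log2 fold change of 0.32 ± 0.18 and an edgeR adjusted p of 0.455. The log2 value was 0.14 without DKO library m1092, which held the 27.4 CPM, and at most 0.46 with any other library left out. Only 104 to 617 reads per library stood behind these values. In GENCODE M21, 61.3% of the exonic bases of Slc2a1 lie within the spans of other genes (Gm12867, Gm12868 and Mir1957a), so the counts may cover part of the transcript.

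Slc2a4 (ENSMUSG00000018566, GRCm38 chr11:69942539-69948188), the insulin-responsive transporter, showed no called difference between genotypes. It ran from 105.8 over a median of 129.9 to 160.1 CPM in controls and from 112.2 over 120.9 to 141.9 CPM in DKO labelled day 1. DKO lay inside the control range throughout, with a log2 fold change of -0.10 (95% interval -0.29 to 0.09). Controls labelled day 7 ran from 81.7 over 85.1 to 93.7 CPM and DKO from 56.2 over 84.6 to 102.5 CPM. The DKO libraries reached both below and above the controls there, and the log2 fold change was -0.10 (95% interval -0.33 to 0.12).

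Among 18 other tested genes of glucose transport and its control, 1 rose and 2 fell in DKO labelled day 1. Over all genes tested, 9.81% were called higher there and 7.79% lower. Hk1, a hexokinase that traps glucose inside the cell, rose from 262.7 ± 30.8 to 307.0 ± 16.4 CPM (log2 0.22 ± 0.07, edgeR adjusted p 0.0427). Pik3ca, a catalytic subunit of the insulin signalling kinase PI3K, fell by 0.23 on the log2 scale (edgeR adjusted p 0.0118). The fructose transporter Slc2a5 fell by 0.71, from 0.556 to 0.339 CPM (edgeR adjusted p 0.0346). In libraries labelled day 7 none of the 18 passed.

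Pdk4 (ENSMUSG00000019577, GRCm38 chr6:5483351-5496309) encodes the kinase that switches off pyruvate dehydrogenase and so spares glucose when fat is burned. At labelled day 1 its lowest, median and highest levels were 118.2, 151.9 and 192.1 CPM in controls and 149.2, 263.4 and 328.5 CPM in DKO. The gene was above the highest control in 5 of 6 DKO libraries, while DKO library 35 lay near the control median. On the log2 scale the fold change was 0.70 ± 0.17, with an edgeR adjusted p of 0.0112, and it stayed between 0.60 and 0.81 when any 1 library was left out. The atrial light chain Myl7 was lower in DKO, where Pdk4 was higher. Myl7 stood at 1.34 to 303.6 CPM in controls (over 50 CPM in 4 of 6) and at 0.564 to 17.3 CPM in DKO labelled day 1. With Myl7 as a covariate the Pdk4 difference was 0.44 (edgeR adjusted p 0.2), and without those 4 controls it was 0.64 (edgeR adjusted p 0.179). Myl7 itself differed by genotype (log2 -4.41, edgeR adjusted p 0.0198), so covariate and genotype cannot be fully told apart. The fit without those controls had fewer libraries, and its SE was 0.29 against 0.17. In the fit over 24 libraries the adjusted p of Pdk4 was 0.0863. For labelled day 7 the values were 18.4, 94.6 and 137.7 CPM in controls and 77.1, 106.5 and 133.6 CPM in DKO. No DKO library exceeded the highest control there, and the log2 fold change was 0.23 with a 95% interval of -0.44 to 0.90. Without control library m1064, which held the 18.4 CPM, it was 0.02.

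Among the 4 kinase genes of pyruvate dehydrogenase, Pdk4 made up 19.6 ± 2.88% of the summed CPM per kb in controls and 27.8 ± 5.37% in DKO labelled day 1, and 9.93 ± 4.01% and 12.9 ± 3.17% at labelled day 7 (n = 6 in each). Of 13 other tested genes of the pyruvate dehydrogenase switch, Pdk1 alone passed in DKO labelled day 1. The shares over all genes were 9.81% higher and 7.79% lower. Pdk1, a kinase of the same family that responds to hypoxia, rose from 148.0 ± 16.1 to 186.9 ± 17.7 CPM (log2 0.33 ± 0.08, edgeR adjusted p 0.00915). None of the 13 passed at labelled day 7.

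Lpl (ENSMUSG00000015568, GRCm38 chr8:68880491-68907448) encodes the lipase that releases fatty acids from triglyceride-rich lipoproteins. In libraries labelled day 1 it ran from 832.7 over a median of 995.6 to 1139 CPM in controls, and DKO had a lowest level of 945.2 and a median of 987.3 CPM. The DKO range lay inside the control range, and the log2 fold change was 0.01 (95% interval -0.13 to 0.16). Controls labelled day 7 spanned 668.1 to 870.5 CPM around a median of 790.0, and DKO 729.2 to 994.8 CPM around 916.8. There 4 DKO libraries lay above the highest control, with a log2 fold change of 0.15 ± 0.09 and an edgeR adjusted p of 0.475.

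Angptl4 (ENSMUSG00000002289, GRCm38 chr17:33773750-33781830) encodes a secreted protein that inactivates lipoprotein lipase. Its lowest, median and highest levels were 18.97, 37.9 and 56.3 CPM in controls and 33.4, 54.3 and 88.1 CPM in DKO labelled day 1. DKO was above the control mean in 5 of 6 libraries, but the log2 fold change of 0.56 ± 0.28 did not pass (edgeR adjusted p 0.197). Within labelled day 7 it was the most variable of the 10 genes for its level, at 9.29, 71.0 and 136.8 CPM in controls and 30.5, 76.5 and 162.2 CPM in DKO. The spread within each group there exceeded the difference between them, which was 0.31 on the log2 scale with a 95% interval of -0.87 to 1.49.

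Of 13 other tested genes of the lipoprotein lipase system, 4 rose and 1 fell in DKO labelled day 1. Shares over all genes were 9.81% higher and 7.79% lower. Angptl6, a secreted angiopoietin-like protein of the family of Angptl4, rose from 2.05 ± 0.295 to 5.92 ± 2.71 CPM (log2 1.53 ± 0.29, edgeR adjusted p 0.00202). Hepatic lipase Lipc rose by 0.43 ± 0.08 on the log2 scale (edgeR adjusted p 0.000933). The proprotein convertases moved apart, with Pcsk5 higher by 0.44 ± 0.05 (edgeR adjusted p 4.87e-05) and Pcsk6 lower, at -0.41 ± 0.13 (edgeR adjusted p 0.0384). In libraries labelled day 7, 2 of the 13 rose and 0 fell, where 0.686% of all genes were called higher and 0.334% lower. Angptl6 rose from 1.77 ± 0.457 to 5.83 ± 2.05 CPM (log2 1.70 ± 0.24, edgeR adjusted p 0.0012), and the apolipoprotein Apoe from 182.9 ± 5.22 to 231.0 ± 25.9 CPM (log2 0.33 ± 0.07, edgeR adjusted p 0.0366). Gpihbp1, which holds the lipase on the capillary wall, averaged 159.0 ± 22.4 CPM in controls and 170.1 ± 11.3 CPM in DKO labelled day 1 and was not called.

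Cd36 (ENSMUSG00000002944, GRCm38 chr5:17781690-17888801) encodes the main fatty acid receptor of heart muscle, which is also made by capillary endothelium and macrophages. At labelled day 1 its lowest, median and highest levels were 1264, 1471 and 1615 CPM in controls and 1242, 1314 and 1387 CPM in DKO. All 6 DKO libraries lay below the control mean and 1 below the lowest control. The log2 fold change of -0.16 ± 0.06 did not pass (edgeR adjusted p 0.0914), but passed at 0.0158 without control library 13. At labelled day 7 the values were 849.0, 1037 and 1175 CPM in controls and 957.3, 1174 and 1329 CPM in DKO. Here 5 of 6 DKO libraries lay above the control mean, with a log2 fold change of 0.17 ± 0.09 (edgeR adjusted p 0.405). The difference of the genotype effect between labelled ages was 0.34 ± 0.11 on the log2 scale, with an edgeR p of 0.00491 before and 0.159 after adjustment.

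Slc27a1 (ENSMUSG00000031808, GRCm38 chr8:71568882-71587302) encodes FATP1, a membrane protein that couples fatty acid import to activation with coenzyme A. In libraries labelled day 1 its lowest, median and highest levels were 148.1, 170.3 and 186.8 CPM in controls and 127.7, 145.8 and 156.4 CPM in DKO. All 6 DKO libraries lay below the control mean, and 3 lay below the lowest control. The log2 fold change was -0.24 ± 0.07 (edgeR adjusted p 0.0185). The adjusted p rose to 0.0509 without control library 56, to 0.051 without DKO library 29 and to 0.443 in the fit over 24 libraries. Among libraries labelled day 7 the values were 59.0, 84.6 and 122.7 CPM in controls and 59.2, 79.1 and 153.5 CPM in DKO. The ranges there overlapped, and DKO library m1026 held the 153.5 CPM. The next highest DKO library, m1124, stood at 89.2 CPM, below the highest control. The log2 fold change of 0.03 turned to -0.20 without m1026. It was also below 0 without control library m1064, m1066 or m1091.

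Fabp3 (ENSMUSG00000028773, GRCm38 chr4:130308595-130315463) encodes the heart-type fatty acid-binding protein that ferries fatty acids to mitochondria. At labelled day 1 its lowest, median and highest levels were 4929, 4998 and 5251 CPM in controls and 5935, 6127 and 6354 CPM in DKO. The groups did not overlap, the one such case among the 10 genes, where 9.4% of all genes tested had groups that did not overlap. On the log2 scale the fold change was 0.28 ± 0.04, with an edgeR adjusted p of 0.000385, and leaving out any 1 library kept it between 0.27 and 0.29 with an adjusted p of at most 0.00166. In the fit over 24 libraries, where libraries labelled day 7 added to the spread, the adjusted p was 0.081. Within labelled day 7 the values were 1676, 1887 and 2827 CPM in controls and 2174, 2521 and 3562 CPM in DKO. All 6 DKO libraries exceeded the control mean and 2 the highest control. The log2 fold change was 0.35 ± 0.15, of the same direction as at labelled day 1, with an edgeR p of 0.0309 before and 0.297 after adjustment. In GENCODE M21, 19.6% of its exonic bases lie within the spans of Gm10570 and Zcchc17.

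Fabp4 (ENSMUSG00000062515, GRCm38 chr3:10204088-10208576) encodes the binding protein of fat cells, capillary endothelium and macrophages. In libraries labelled day 1 its lowest, median and highest levels were 485.1, 581.9 and 688.2 CPM in controls and 437.7, 483.3 and 524.2 CPM in DKO. All 6 DKO libraries lay below the control mean and 3 below the lowest control. On the log2 scale the fold change was -0.25 ± 0.08 (edgeR adjusted p 0.0443). This call was the weakest of the 5. It was lost without any 1 of 9 of the 12 libraries (adjusted p of up to 0.0969), with limma-voom (0.0505), with protein-coding genes only (0.0915) and with Myl7 as a covariate (-0.19, adjusted p 0.257). Of 7 endothelial markers 0 were called, and their sum had a median of 1167 CPM in controls and 1182 CPM in DKO. General fat cell markers other than Thrsp were near 0, and Adipoq reached at most 0.11 CPM and Plin1 at most 0.232 CPM in any of the 24 libraries. The 5 brown fat cell markers (3 tested, 0 called) summed to 267.2 to 368.9 CPM in controls and 239.0 to 283.0 CPM in DKO. Most of that sum was Ppargc1b (175.4 to 312.0 CPM over the 24 libraries), while Ucp1 (at most 0.47 CPM) and Elovl3 (at most 0.14 CPM) were near 0. Macrophage markers (0 of 7 called) summed to 102.1 to 134.1 CPM in controls and 93.0 to 128.2 CPM in DKO. The part of endothelial cells, fat cells and macrophages in the Fabp4 values was not tested.

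At labelled day 7, Fabp4 stood the other way round, at 291.9, 348.5 and 420.3 CPM in controls and 347.9, 408.9 and 456.8 CPM in DKO. Here 5 of 6 DKO libraries were above the control mean, with a log2 fold change of 0.22 ± 0.09 (edgeR adjusted p 0.276). The difference of the genotype effect between labelled ages was 0.48 ± 0.12 on the log2 scale, with an edgeR adjusted p of 0.0607 and a DESeq2 adjusted p of 0.0218. Over all libraries left out in turn, the edgeR adjusted p of this difference ran from 0.0307 to 0.119. It passed without control library 22, 25 or m1022 or DKO library m1067. Macrophage markers had medians of 69.7 CPM in controls and 81.2 CPM in DKO labelled day 7, with 0 of 7 called. For the difference of genotype effects itself, 3 of 8 atrial markers were called higher at labelled day 7 (Dkk3, Myl7 and Sln) and 2 of 6 skeletal muscle markers lower (Myh1 and Myh4). The part of these markers in the Fabp4 difference was not tested.

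Of 15 other tested genes of fatty acid uptake and activation, 1 rose and 0 fell in DKO labelled day 1. Over all genes, 9.81% were called higher and 7.79% lower. The gene that rose was Acsl5, an acyl-CoA synthetase, from 29.0 ± 2.32 to 37.6 ± 3.62 CPM (log2 0.37 ± 0.07, edgeR adjusted p 0.00207). Of its exonic bases, 76.9% lie within the span of Zdhhc6. None of the 15 passed at labelled day 7. Within its family, Fabp3 made up 89.8 ± 1.24% of the summed CPM per kb of Fabp3, Fabp4 and Fabp5 in controls and 92.6 ± 0.462% in DKO labelled day 1. Slc27a1 made up 95.2 ± 0.675% and 93.8 ± 0.966% of Slc27a1, Slc27a4 and Slc27a6 in the same groups.

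Plin5 (ENSMUSG00000011305, GRCm38 chr17:56111601-56117596) encodes the droplet coat protein of oxidative muscle, which holds lipid droplets close to mitochondria. At labelled day 1 its lowest, median and highest levels were 159.0, 212.2 and 247.0 CPM in controls and 162.5, 180.8 and 212.0 CPM in DKO. DKO lay inside the control range with 1 library above the control mean, and the log2 fold change of -0.18 ± 0.10 did not pass (edgeR adjusted p 0.219). It passed at 0.0355 without control library 13, the lowest control, and at 0.0492 without the 4 controls over 50 CPM of Myl7. For labelled day 7 the values were 34.5, 64.1 and 98.5 CPM in controls and 45.8, 73.3 and 94.3 CPM in DKO. These ranges overlapped throughout, with a log2 fold change of 0.21 (95% interval -0.26 to 0.69).

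Of 18 other tested genes of lipid droplets and lipolysis, 4 rose and 1 fell in DKO labelled day 1. The shares over all genes were 9.81% higher and 7.79% lower. Fitm1, which helps droplets form in muscle, fell from 148.8 ± 30.9 to 99.1 ± 11.8 CPM (log2 -0.59 ± 0.14, edgeR adjusted p 0.00747). The coat gene Plin3 rose from 106.7 ± 6.89 to 128.4 ± 6.01 CPM (log2 0.26 ± 0.05, edgeR adjusted p 0.00258), and Gpam, which starts triglyceride synthesis, by 0.32 ± 0.09 on the log2 scale (edgeR adjusted p 0.0199). Cideb also rose (log2 0.68 ± 0.17, edgeR adjusted p 0.0123) at a level below 2 CPM, and 76.3% of its exonic bases lie within the span of Nop9. Plin5 made up 50.1 ± 3.33% of the summed CPM per kb of Plin2, Plin3, Plin4 and Plin5 in controls and 45.1 ± 1.60% in DKO labelled day 1. None of these 18 passed at labelled day 7.

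Among regulators of these genes, 1 of 25 tested rose and 4 fell in DKO labelled day 1. Over all genes, 9.81% were called higher and 7.79% lower. Hif1a, the oxygen-regulated factor, rose from 34.3 ± 5.57 to 51.5 ± 10.0 CPM (log2 0.58 ± 0.13, edgeR adjusted p 0.0073). All its exonic bases lie within the spans of Gm15283 and Gm49321. Prkaa2, a catalytic subunit of the energy sensor AMPK, was lower, at -0.26 ± 0.06 on the log2 scale (edgeR adjusted p 0.00523). The glucocorticoid receptor Nr3c1 (-0.23) and the corepressor Ncor1 (-0.22) were lower as well. The PPAR receptor genes Ppara (-0.42, edgeR adjusted p 0.0763) and Pparg (-0.47, edgeR adjusted p 0.131) had lower means in DKO and were not called. The coactivator Ppargc1a had a higher mean and was not called either (0.77, edgeR adjusted p 0.0954). Beside the same 9.81% and 7.79% of all genes, 6 of 24 other PPAR target genes rose and 0 fell. Among them was the thioesterase Acot2 (290.7 ± 32.1 to 445.2 ± 52.1 CPM, log2 0.61 ± 0.09, edgeR adjusted p 0.000161). The stress hormone Fgf21 was almost absent in controls (0.0136 ± 0.0228 CPM) and stood at 2.95 ± 1.94 CPM in DKO (edgeR adjusted p 2.7e-05). At labelled day 7, 0 of the regulators and 1 of the 24 targets passed, where 0.686% of all genes were called higher. That target was Fgf21, which averaged 0.016 ± 0.0252 CPM in controls against 2.86 ± 2.62 CPM in DKO (edgeR adjusted p 0.00162).

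**Figure D3:**
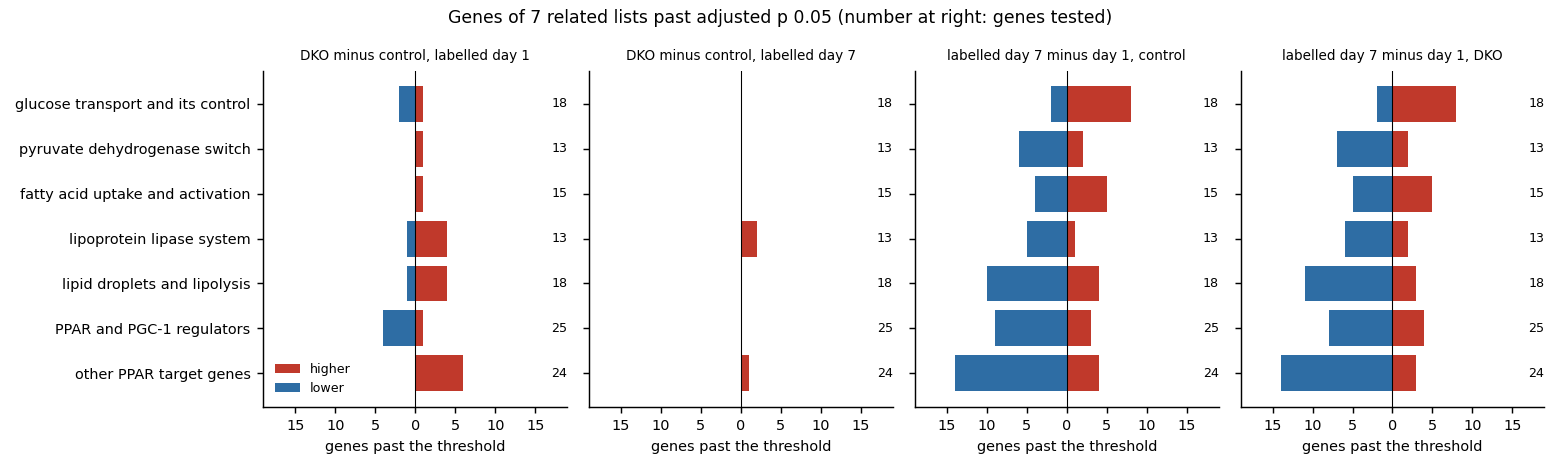
Number of genes of each of 7 related lists that passed an edgeR adjusted p of 0.05 (x axis, higher to the right of 0 and lower to the left), by comparison. The 10 described genes are not in the lists, and the number at the right of each panel is the number of list genes tested. In DKO labelled day 1 the bars are short, with at most 6 genes in a direction, and between labelled ages they reach 14.

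The libraries labelled day 7 were then compared with those labelled day 1 within each genotype. In controls, Slc2a1 rose and the other 8 called genes fell, with Plin5 at 0.301 and Fabp3 at 0.413 times the level of labelled day 1. Thus 1 of the 10 genes was called higher and 8 lower, where 27.4% of all genes were called higher and 25.6% lower. In 7 of the 10 the groups did not overlap, as in 26.8% of all genes. The median log2 fold change of the 10 was -0.67, against 0.01 over all genes. In DKO, 1 was called higher and 6 lower, where 27.3% of all genes were called higher and 25.3% lower, and the median was -0.43, against 0.02 over all genes. In DKO the labelled ages did not overlap for 5 of the 10, as for 30.8% of all genes.

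On the glucose side the 2 transporters moved in opposite directions. Slc2a1 rose by 1.70 ± 0.20 on the log2 scale in controls (edgeR adjusted p 1.17e-07) and by 1.39 ± 0.20 in DKO (edgeR adjusted p 1.92e-06). Slc2a4 fell by 0.62 in controls and by 0.62 in DKO, with edgeR adjusted p of 6.19e-05 and 6.07e-05. Neither transporter overlapped between the labelled ages in either genotype.

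On the fatty acid side the largest changes were those of the droplet coat gene Plin5, at -1.73 ± 0.19 in controls and -1.33 ± 0.19 in DKO (log2, edgeR adjusted p 9.13e-08 and 3.48e-06), and of Fabp3, at -1.28 ± 0.11 and -1.20 ± 0.11 (edgeR adjusted p 7.84e-10 and 2.37e-09). Slc27a1 followed at -0.99 ± 0.19 and -0.71 ± 0.18 (edgeR adjusted p 9.32e-05 and 0.00252). These 3 genes passed in both genotypes under every alternative that was run. Fabp4 was lower by 0.72 on the log2 scale in controls (edgeR adjusted p 2.11e-07) and by 0.24 in DKO (edgeR adjusted p 0.0233). The DKO call of Fabp4 was lost without DKO library 33, 35 or m1067 (adjusted p of up to 0.068) and among libraries with Y-linked transcripts, where the log2 change was -0.13 (edgeR adjusted p 0.381). Cd36 fell by 0.51 in controls (edgeR adjusted p 4.94e-06), and in DKO its log2 change was -0.17 ± 0.08 (edgeR adjusted p 0.0632). That DKO value passed with RLE size factors (adjusted p 0.048), with protein-coding genes only (0.0182), in a fit of the 12 DKO libraries alone (0.027) and without library 13, m1064, m1026 or m1128 (0.025 to 0.0499). Both comparisons of labelled age rest on libraries that the genotype comparisons use too, and for each gene the gap between its 2 changes is the difference of genotype effects given above.

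The lipase and its inhibitor did not share a direction. Lpl fell by 0.33 in controls (edgeR adjusted p 0.00199), and its log2 change in DKO was -0.19 ± 0.08 (edgeR adjusted p 0.0604). The Lpl value in DKO passed with RLE size factors (adjusted p 0.0487), with protein-coding genes only (0.0223), in a fit of the 12 DKO libraries alone (0.031) and without control library 13 (0.0219) or DKO library m1092 (0.0289). Among libraries with Y-linked transcripts it was -0.45 (edgeR adjusted p 0.004). Angptl4 had log2 changes of 0.89 ± 0.48 in controls and 0.65 ± 0.48 in DKO, neither past the threshold (edgeR adjusted p 0.127 and 0.265). In controls it passed without library m1064 (1.12, edgeR adjusted p 0.0283). When only libraries with Y-linked transcripts were used, Angptl4 passed in both genotypes, at 1.19 in controls and 1.39 in DKO (edgeR adjusted p 0.0332 and 0.0135). Pdk4 fell by 1.22 in DKO (edgeR adjusted p 0.000758) and by 0.76 in controls (edgeR adjusted p 0.0244). The control call of Pdk4 was lost without control library 22 (adjusted p 0.0536) and in a fit of the 12 controls alone (adjusted p 0.0725).

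**Figure D4:**
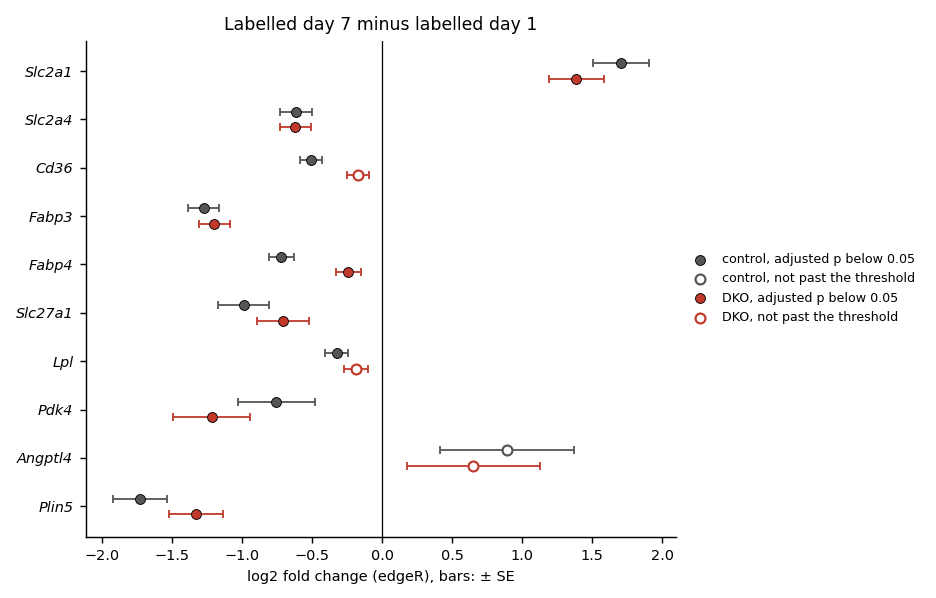
Labelled day 7 minus labelled day 1 for each of the 10 genes, as log2 fold change (x axis) with its SE, in controls and DKO. Filled points passed an edgeR adjusted p of 0.05. Slc2a1 lies to the right of 0, the called fatty acid genes, Slc2a4 and Pdk4 lie to the left, and Angptl4 (0.89 and 0.65) passed in neither genotype.

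The other cells of the ventricle moved with labelled age as well. Endothelial markers were lower at labelled day 7, with 7 of 7 called in controls and 6 of 7 in DKO, and their sum in controls had a median of 1167 CPM (highest 1237) at labelled day 1 and 774.3 CPM (highest 804.6) at labelled day 7. Fibroblast markers were lower too (7 of 7 in both genotypes), and their sum in controls went from 5016 to 6374 CPM down to 2129 to 3922 CPM. For macrophage markers, 7 of 7 were lower in controls and 4 of 7 in DKO. Cd36, Fabp4 and Lpl are made by some of these cells, and the part of the markers in the lower values of Cd36, Fabp4 and Lpl was not tested. In tissue libraries, fewer cells of a type and less RNA per cell cannot be told apart. Pericyte and smooth muscle markers had 5 of 6 lower and 1 higher in both genotypes, with a median sum of 2145 CPM in controls labelled day 1 and 1441 CPM at labelled day 7. Of 5 tested erythroid markers (Hbb-bs and Alas2 at 0), 4 were lower in controls and 5 in DKO, and the control sums of 9573 to 16240 CPM and 6051 to 9030 CPM did not overlap. Atrial markers had 2 of 8 higher and 1 lower in controls and 5 of 8 higher in DKO, where the sum spanned 178.6 to 907.7 CPM at labelled day 1 and 679.4 to 2720 CPM at labelled day 7. Of 6 tested skeletal muscle markers, 1 was higher and 1 lower in controls and 1 higher and 5 lower in DKO. The DKO sums of 1441 to 1687 CPM and 1544 to 1953 CPM were mostly Ckm (1230 to 2031 CPM over all libraries). The part of these 4 lists in the values of the 10 genes was not tested. General fat cell markers were at or near 0 at both labelled ages, except for Thrsp, whose highest level was 12.9 CPM. Of 5 brown fat cell markers, Ucp1 (at most 0.47 CPM) and Elovl3 (at most 0.14 CPM) were near 0. Cidea (15.2 to 58.5 CPM), Ppargc1b (175.4 to 312.0 CPM) and Dio2 (3.64 to 9.23 CPM) were not. Cidea was called lower at labelled day 7 in both genotypes and Dio2 higher in controls. The part of these markers in the values of the 10 genes was not tested.

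Related genes were counted between labelled ages against the same 27.4% of all genes called higher and 25.6% lower in controls. Of 18 genes of glucose transport and its control, 8 rose and 2 fell in controls (median log2 change 0.11), and the same numbers in DKO. Hk1 rose by 1.04 on the log2 scale in controls (edgeR adjusted p 5.63e-11), while the muscle-type hexokinase Hk2 fell by 1.13 (edgeR adjusted p 1.81e-08). Among the 13 genes of the pyruvate dehydrogenase switch, 2 rose and 6 fell in controls (median -0.13). Pdk1 (1.15 ± 0.13) and Pdk3 (1.74 ± 0.15) rose there on the log2 scale, against the fall of Pdk4. The mitochondrial pyruvate carriers Mpc1 (-0.56) and Mpc2 (-0.65) fell, and 67.1% of the exonic bases of Mpc1 lie within the span of 4930506C21Rik. Of 15 genes of fatty acid uptake and activation, 5 rose and 4 fell in controls (median 0.07), shares close to those of all genes. The synthetase Acsl3 rose from 13.1 ± 2.43 to 83.8 ± 5.17 CPM, and the transport protein Slc27a4 from 10.97 ± 1.97 to 28.8 ± 7.64 CPM, in contrast to Slc27a1. Meox2, a homeobox factor of the heart's capillary endothelium, fell from 91.1 ± 11.1 to 34.1 ± 3.35 CPM.

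Of the 13 genes of the lipase system, 1 rose and 5 fell in controls, with Gpihbp1 down from 159.0 ± 22.4 to 76.4 ± 4.34 CPM (log2 -1.06 ± 0.08, edgeR adjusted p 1.33e-10) beside the fall of Lpl. The median over these 13 was near 0 (-0.0009). Lipid droplet genes fell in 10 of 18 cases and rose in 4 (median -0.33). The other PPAR targets fell in 14 of 24 and rose in 4 (median -0.47). The uncoupling protein Ucp3 was among those that fell (87.1 ± 25.3 to 18.6 ± 20.1 CPM, edgeR adjusted p 0.00353). Of 25 regulators, 3 rose and 9 fell (median -0.07). Rxrg, a partner receptor of the PPARs, fell by 3.38 on the log2 scale and the coactivator Ppargc1a by 0.82, while Klf15 rose by 2.32 ± 0.29.

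Within groups, some of the 10 genes varied together. Log2 CPM was centred in each group, and all 45 pairs were tested over 24 libraries by a two-sided permutation test within groups with 100000 resamples. By Pearson's r, 11 pairs passed an adjusted p of 0.05, and by Spearman's rho, 6 did. Pairs of other genes were not tested, so these counts have no share over all genes beside them. Whether they are particular to these genes was not tested. Slc2a4 and Lpl rose and fell together (r = 0.796, permutation p 3e-05, adjusted p 0.0009, rho = 0.778, permutation p 7e-05, adjusted p 0.00247). This held at labelled day 1 (r = 0.820) and at labelled day 7 (r = 0.780) and without the 2 libraries farthest out in Slc2a4 (r = 0.763). Angptl4 ran against Lpl, the enzyme it inhibits (r = -0.746, permutation p 9e-05, adjusted p 0.00135, rho = -0.765, permutation p 0.00011, adjusted p 0.00247), with r = -0.787 at labelled day 1 and -0.766 at labelled day 7. Without the 2 libraries farthest out in Lpl it was -0.742. It also ran against Slc2a4 (r = -0.577, permutation p 0.00051, adjusted p 0.00459, rho = -0.669, permutation p 0.00029, adjusted p 0.00435), with r = -0.539 without the 2 farthest libraries and -0.766 and -0.534 by labelled age. Slc2a1 ran against 2 of the fatty acid genes. Slc2a1 and Plin5 had r = -0.581 (permutation p 0.00417, adjusted p 0.0235) and rho = -0.499 (permutation p 0.0163, adjusted p 0.0814), with r = -0.696 and -0.612 by labelled age and -0.376 without the 2 farthest libraries. Slc2a1 and Slc27a1 passed by rho (-0.592, permutation p 0.00184, adjusted p 0.0166) and not by r (-0.532, permutation p 0.0142, adjusted p 0.0534), with r = -0.732 and -0.59 by labelled age and -0.365 without the 2 farthest.

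**Figure D5:**
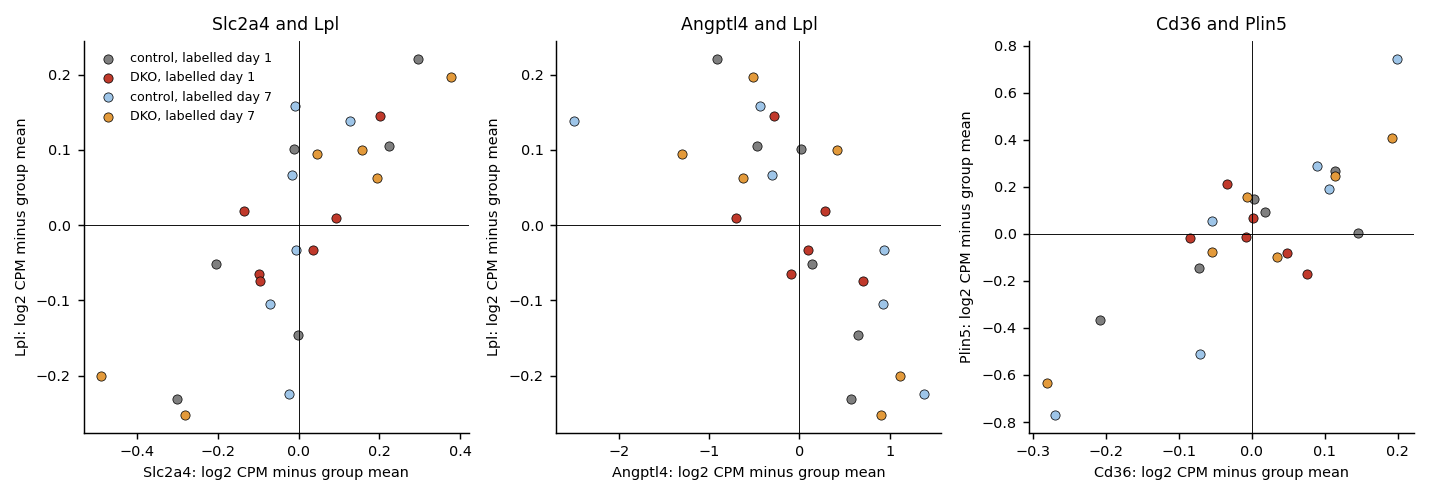
Deviation of each library from its group mean, in log2 CPM, for Slc2a4 and Lpl, for Angptl4 and Lpl, and for Cd36 and Plin5. Each point is 1 of 24 libraries, coloured by group. Lpl rises with Slc2a4 (r = 0.796) and falls with Angptl4 (r = -0.746), and Plin5 rises with Cd36 (r = 0.84).

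A further set of fatty acid genes varied together mostly among libraries labelled day 7. Cd36 and Plin5 had r = 0.84 (permutation p 4e-05, adjusted p 0.0009, rho = 0.73, permutation p 0.00076, adjusted p 0.00855), with 0.529 at labelled day 1 and 0.929 at labelled day 7, and 0.722 without the 2 farthest libraries. Slc27a1 and Plin5 had r = 0.787 (permutation p 0.00038, adjusted p 0.00427, rho = 0.692, permutation p 0.0026, adjusted p 0.0195), with 0.354 and 0.838 by labelled age and 0.754 without the 2 farthest. Fabp3 and Slc27a1 had r = 0.829 (permutation p 0.0009, adjusted p 0.00675), but rho was 0.557 (permutation p 0.0294, adjusted p 0.13), r was 0.645 without the 2 farthest libraries, and r was -0.517 at labelled day 1 against 0.881 at labelled day 7. That relation therefore did not hold within labelled day 1. Pdk4 and Angptl4 had r = 0.682 (permutation p 0.012, adjusted p 0.0489, rho = 0.531, permutation p 0.00923, adjusted p 0.0558), which was 0.445 without the 2 farthest libraries and 0.411 without library m1064. The same control library m1064 was the lowest of its group in 6 of the 10 genes, among them Pdk4 (18.4 CPM), Angptl4 (9.29 CPM) and Plin5 (34.5 CPM). Control library m1101 was the highest of its group in 5.

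For each of the 10, the protein-coding genes with the most similar variation within groups were sought among 10559 candidates with a mean of at least 5 CPM. As maxima over so many candidates, the r values over 24 libraries describe these libraries only. Slc27a1 was matched most closely by Retsat (r = 0.95), a retinol saturase, and by Ago4 (0.93). Fabp3 followed Etfdh (0.92) and Hsdl2 (0.90), and Plin5 followed Slc25a34 (0.92) and Cntnap5b (0.89). Lpl was matched by Ly6c1 (0.89) and Ivd (0.87), and Slc2a4 by Ivd (0.87) and Ckmt2, the mitochondrial creatine kinase of muscle (0.86). Angptl4 went with Smarcb1 (0.88) and Impa2 (0.87), Cd36 with Zdhhc17 (0.87) and Lrrc39 (0.84), Slc2a1 with Cyp20a1 (0.86) and Rpp30 (0.84), and Fabp4 with Pin4 (0.84) and Hspb1 (0.80). Pdk4 had the weakest matches, C330018D20Rik (0.76, Spearman's rho 0.39) and Neil1 (0.72, rho 0.47), which fell to 0.49 and 0.39 without the 2 farthest libraries.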

How the data were processed

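Polyadenylated RNA of left ventricular tissue was sequenced in 24 libraries from 100 ng of total RNA each with a low-input cDNA kit that does not mark strand, per the labels' protocols. The authors deposited raw counts per gene, whole numbers with 1 column per library. STAR 2.4.2a, bcl2fastq and build GRCm39 are named in the submitters' processing notes. Which tool counted the reads, with which annotation and with what rule for overlapping genes, is not given in the sources used here. Genes with a blank symbol (52) were tested too. Gene spans come from GENCODE M21 (GRCm38), and overlaps with other genes are stated for some of the named genes, not for all that have them.

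Counts were filtered with filterByExpr (minimum count 10), scaled by TMM and tested (edgeR 4.0.16, R 4.3.3, robust quasi-likelihood F-test, Benjamini-Hochberg over 17352 genes, threshold 0.05). Genotype was fitted within the 12 libraries of a labelled age, and labelled age and the difference of genotype effects over 24. SE is the absolute log2 fold change over the root of F, and intervals are 95%. DESeq2 1.42.0 and limma-voom 3.58.1 were alternatives, with others for scaling, filter, genes, atrial and Y-linked transcripts and each library left out. Named list genes are up to 4 called genes with the largest change per list and comparison, and similar genes the 2 with the highest r; some genes that the rule names are not reported here. The 10 genes and the lists were chosen with earlier results of these data known. No pair of replicates agreed within sampling noise (lowest chi-square per degree of freedom 5.31). Separate animals are not stated for the libraries, and p-values therefore refer to the spread among libraries, which may be technical. Scripts were tested on simulated data.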

Additional observations from a re-analysis of the deposited data

Results flagged for a closer look

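Among 40 sets of 6 libraries (10 genes in 4 groups), 4 held a library that stood apart from the other 5 by a gap test, which chance alone flags in about 1 of 20 sets. All 4 were labelled day 7. Slc2a1 reached 19.9 CPM in control library m1091 and 27.4 CPM in DKO library m1092, each the highest of its group. Slc2a4 stood at 93.7 CPM in control library m1064, above a group median of 85.1 CPM. Slc27a1 stood at 153.5 CPM in DKO library m1026, above a group median of 79.1 CPM.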

How the results depend on the processing

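The count of 5 genes called at labelled day 1 was 1 in the fit over all 24 libraries, 3 with Myl7 as a covariate and 2 to 6 with each library left out. The count of 0 for the difference of genotype effects was 1 with DESeq2 and 0 to 1 with each library left out. At labelled day 7 the count was 0 throughout. The counts for labelled age ran from 8 to 10 in controls and from 6 to 9 in DKO with each library left out. Directions turned for values near 0: Lpl at labelled day 1 (-0.051 with Myl7 as a covariate, -0.0633 without the controls over 50 CPM of Myl7) and, in the difference of genotype effects, Slc2a4 (1e-04 with DESeq2, 0.0057 with no filter) and, in libraries with Y-linked transcripts, Fabp3 (-0.0492), Lpl (-0.0175) and Angptl4 (0.1946). With each library left out, the difference of genotype effects ran from -0.4966 to 0.0568 for Angptl4, -0.0212 to 0.1864 for Fabp3 and -0.0827 to 0.082 for Slc2a4. The genotype effect ran from -0.0294 to 0.0619 for Lpl at labelled day 1 and from -0.2033 to 0.1716 for Slc27a1 at labelled day 7. The cause was not tested. Of single-gene values, 320 kept direction and call under the other settings, 11 gained a call, 12 lost one and 7 turned. With each library left out, these numbers were 908, 13, 20 and 19. Depth limits Slc2a1 most, with as few as 104 reads. No paired analysis was possible because each library carries its own name and no name is shared between groups.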
